A study of Mus musculus with 8 samples.

Results

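The 10 genes Saa1, Saa2, Saa3, Saa4, Hp, Hpx, Orm1, Orm2, Lrg1 and Lcn2 encode serum amyloid A proteins, haptoglobin, hemopexin, orosomucoids and other secreted acute phase proteins. They were taken by gene symbol from the platform annotation, which placed them on 10 of the 41345 transcript clusters of the array, where a transcript cluster is a set of probes summarised as 1 value. Of these clusters 9 carried 1 symbol, and 1 carried both Saa1 and Saa2. Saa1 had no cluster of its own, so the shared cluster stands for Saa1 or Saa2 or both, and Saa2 also had a cluster to itself.

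Affymetrix MoGene 2.0 ST arrays were hybridised with RNA of AML12 cells, a mouse hepatocyte line that makes many secreted liver proteins in culture. The Zfp125 group comprised 4 arrays of AML12 cells stably expressing Zfp125, a zinc finger protein, and the EV group 4 arrays of AML12 cells with the empty vector. Both lines had been selected in G418 and kept in control medium, and no other agent is named in the labels. Whether the arrays of a group came from separate cultures, transductions or clones is not stated in the labels, so the p-values reflect the spread among these arrays only, and that spread may be technical. The annotation used here gave Zfp125 no cluster, so its expression could not serve as a check of the labels.

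The acute phase response is the change in the plasma proteins that the liver secretes during infection and injury. In hepatocytes, interleukin-6 acts mainly through STAT3 and interleukin-1 mainly through NF-kB and C/EBP factors on the promoters of these genes, and glucocorticoids strengthen the response. Serum amyloid A proteins are lipid-binding proteins carried on high-density lipoprotein. Haptoglobin and hemopexin bind the hemoglobin and heme that lysed red cells release, and lipocalin 2 binds the bacterial iron carriers called siderophores.

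Upstream sequences are printed for Saa3 and Lrg1, which were lower in Zfp125 cells, and for Saa1 and Saa2, relatives of Saa3 that were not called. Saa4, a further relative that was not called, had a window that is not printed. RefSeq promoter windows (build GRCm38.p6) matched 8 of the 10 genes, and Hp and Orm1 had no window. Each sequence is the 250 bases before the annotated start, 5′ to 3′ on the gene's strand: chr7:46715677-46715926 (minus strand) for Saa3, chr7:46742981-46743230 (minus strand) for Saa1, chr7:46751583-46751832 (plus strand) for Saa2 and chr17:56121947-56122196 (minus strand) for Lrg1. Capitals mark matches to any of 6 motifs searched on both strands, which were TTNNGNAA for C/EBP factors, TTCNNNGAA for STAT factors, GGGNNTTTC for NF-kB, TATAAA for the TATA box, GTTAATNAT for HNF1 and CTGGGAA for the type 2 element of the interleukin-6 response. The C/EBP letters can overlap those for STAT and the type 2 element.
Saa3: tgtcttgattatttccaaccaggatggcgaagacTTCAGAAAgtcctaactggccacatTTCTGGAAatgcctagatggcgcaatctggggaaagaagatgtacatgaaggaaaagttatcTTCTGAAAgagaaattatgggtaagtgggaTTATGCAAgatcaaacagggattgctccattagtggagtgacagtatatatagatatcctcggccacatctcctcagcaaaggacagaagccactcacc
Saa1: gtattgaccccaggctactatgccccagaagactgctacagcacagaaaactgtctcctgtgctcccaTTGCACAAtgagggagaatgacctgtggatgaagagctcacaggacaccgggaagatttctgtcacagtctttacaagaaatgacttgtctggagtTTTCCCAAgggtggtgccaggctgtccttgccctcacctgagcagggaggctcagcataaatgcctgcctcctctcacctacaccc
Saa2: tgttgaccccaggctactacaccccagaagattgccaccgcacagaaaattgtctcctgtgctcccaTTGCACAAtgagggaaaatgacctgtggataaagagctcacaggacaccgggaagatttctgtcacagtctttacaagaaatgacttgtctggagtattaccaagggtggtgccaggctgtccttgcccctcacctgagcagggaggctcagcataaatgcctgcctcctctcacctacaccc
Lrg1: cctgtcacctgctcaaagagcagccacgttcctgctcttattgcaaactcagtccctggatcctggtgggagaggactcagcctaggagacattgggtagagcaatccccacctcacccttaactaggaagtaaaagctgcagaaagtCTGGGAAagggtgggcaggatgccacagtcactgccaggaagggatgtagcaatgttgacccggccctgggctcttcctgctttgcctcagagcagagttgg

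The C/EBP letters occurred in 4 stretches of the Saa3 window, at TTCAGAAA, TTCTGGAA, TTCTGAAA and TTATGCAA, of which the last ended 92 bases before the start. The Saa1 window held 2 stretches, TTGCACAA and TTTCCCAA, and the Saa2 window 1, the same TTGCACAA. In the Saa4 window, which is not printed, there were 2 stretches. The Lrg1 window held no C/EBP match and 1 match to the type 2 element, from 102 to 96 bases before the start. Over the members, C/EBP letters were in 7 of 8 windows, against 36.9% of 32841 RefSeq windows of the same length, and the type 2 letters in 1 of 8, against 9.1%. TATAAA was in 1 of 8, that of Orm2, against 12.4%. STAT, NF-kB and HNF1 letters were in 0 of 8, against 7.02%, 3.72% and 0.737% of RefSeq windows. The member windows are not independent, since those of Saa1 and Saa2 are nearly the same sequence, and all serum amyloid windows are among the C/EBP matches. These are matches of letters and not binding sites.

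The Saa1 and Saa2 windows were nearly the same sequence, with 238 identical bases in an alignment of 251 columns (94.8%). The Saa3 window shared 48.9% of alignment columns with Saa1, 47.9% with Saa2 and 44.5% with Saa4. No protein sequences were used here.

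Among the 10 member clusters, 3 were lower and 0 were higher in Zfp125 cells, and the 3 were Saa3, Hp and Lrg1. Over all clusters, 0.123% were called lower and 0.0242% higher. A cluster was called at an adjusted p under 0.05 from limma's moderated test, with Benjamini-Hochberg adjustment over all 41345 clusters. All values are on the log2 scale, changes are Zfp125 minus EV with their standard error (SE), and means have their SD over 4 arrays. The median change was -0.50 over the members and -0.00095 over all clusters, and 8 member clusters had a change below 0. The values of the 2 groups did not overlap for 4 member clusters, all lower in Zfp125 cells, against 3.03% of all clusters that were lower and 3.2% that were higher in this sense. AML12 RNA is a bulk measure, so fewer cells making a transcript and less transcript per cell cannot be told apart.

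**Figure D1:**
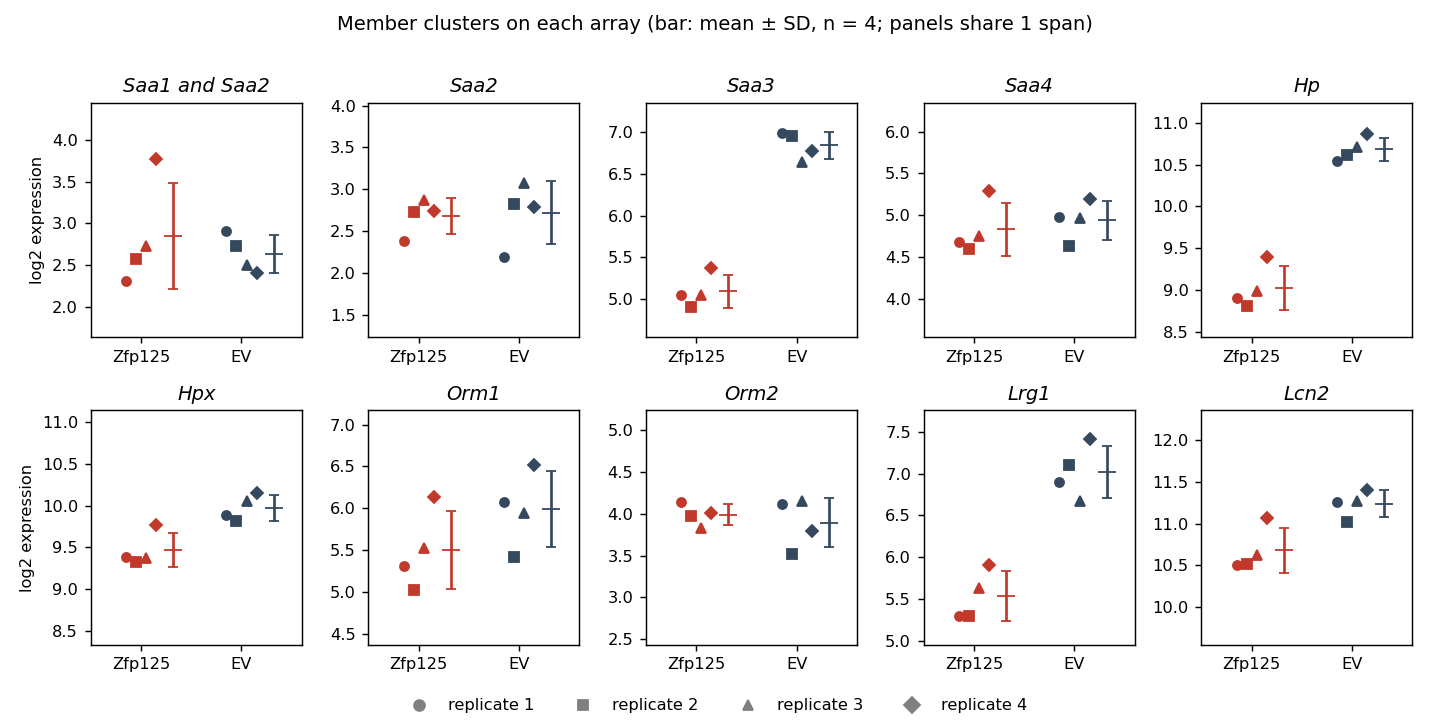
Level of each member cluster on each array (y axis, log2 expression) in Zfp125 and EV cells, with marker shapes for the replicate number and bars for the mean ± SD of 4 arrays, and every panel spans the same number of log2 units. Saa3, Hp, Hpx and Lrg1 have all Zfp125 arrays below all EV arrays, and replicate 4 is the highest Zfp125 array in 8 of the 10 panels.

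Of the serum amyloid A genes, Saa3 was lower in Zfp125 cells. Saa3 is the member that is made by many tissues besides liver in the mouse. Its values were 5.05, 4.91, 5.05 and 5.37 in Zfp125 cells, against 6.99, 6.95, 6.64 and 6.77 in EV cells. The lowest EV array was 1.27 above the highest Zfp125 array. The change was -1.74 ± 0.12 (95% confidence interval -2.02 to -1.47), a 3.35-fold lower level (limma, adjusted p = 0.00257). It was the largest fall of all 41345 clusters and had the rank 2 by p-value. The call held in each of 8 omissions of 1 array (adjusted p = 0.00217 to 0.0248) and ended without variance moderation (adjusted p = 0.0532).

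The other serum amyloid clusters had levels that overlapped between the groups. Saa4 encodes the constitutive serum amyloid A, which inflammation induces little. Its values were 4.68, 4.60, 4.76 and 5.29 in Zfp125 cells, against 4.98, 4.63, 4.97 and 5.19 in EV cells. Both groups covered nearly the same range, and the change was -0.11 ± 0.17 (95% confidence interval -0.49 to 0.28, limma, adjusted p = 0.902).

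Saa1 and Saa2 are the main serum amyloids that the inflamed liver releases into plasma. Their shared cluster had 2.31, 2.58, 2.74 and 3.77 in Zfp125 cells, against 2.91, 2.73, 2.50 and 2.41 in EV cells. The Zfp125 array of replicate 4 lay above the rest, and without it the change of 0.21 ± 0.28 (limma, adjusted p = 0.879) became -0.095. The single Saa2 cluster had 2.38, 2.72, 2.87 and 2.74 in Zfp125 cells, against 2.19, 2.83, 3.07 and 2.79 in EV cells, a change of -0.041 ± 0.186 (limma, adjusted p = 0.973). Both clusters lay below the median of the cluster means, 4.34, and only 19.3% and 18.5% of clusters were dimmer. No detection call came with the values, so a change in transcripts near background cannot be told apart from none, and probes for near-identical copies may share signal.

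The 4 serum amyloid genes lie within 1 stretch of chromosome 7, and the change of Saa3 was compared with those of its relatives. On each array the value of the relative was subtracted from that of Saa3, and only the shift of this difference between groups is read, since each cluster has its own probe response. The Saa3 minus Saa4 difference averaged 0.26 ± 0.13 in Zfp125 cells and 1.90 ± 0.34 in EV cells, a shift of -1.63 ± 0.18. Every Zfp125 array lay below every EV array in this difference (exact two-sided permutation test over 70 assignments, p = 0.0286, the smallest possible, adjusted p = 0.0357 over 5 pairs). The shift was -1.70 ± 0.29 against the Saa2 cluster and -1.96 ± 0.24 against the cluster shared by Saa1 and Saa2. Both of those clusters are dim, and a dim partner may have no room to fall. These shifts thus largely restate the change of Saa3 and show no difference between the genes. The Saa4 cluster was brighter, with 61.5% of clusters dimmer. Its range was 0.69 in Zfp125 cells and 0.56 in EV cells, while the Saa3 groups lay 1.27 apart. The Saa3 minus Saa4 shift thus also largely restates the change of Saa3. Whether Saa4 had room to fall is also not known, as no detection call came with the values.

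**Figure D2:**
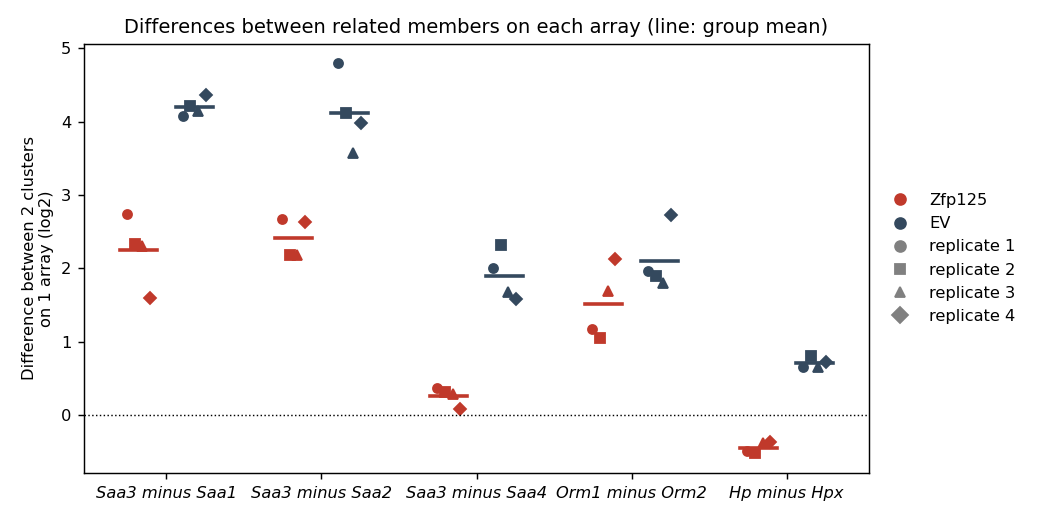
Difference between 2 member clusters on each array (y axis, log2) for 5 pairs, in Zfp125 and EV cells, with lines at the group means. The groups are separate in the 3 Saa3 pairs and for Hp minus Hpx, and overlap for Orm1 minus Orm2; the Saa1 and Saa2 clusters are dim.

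Of the hemoglobin and heme binding proteins, haptoglobin was lower in Zfp125 cells. Hp had 8.90, 8.81, 8.99 and 9.40 in Zfp125 cells, against 10.55, 10.62, 10.71 and 10.87 in EV cells. The gap between the highest Zfp125 and the lowest EV array was 1.15. Hp fell by 1.66 ± 0.14 (95% confidence interval -1.97 to -1.35), to 31.6% of the EV level on the linear scale (limma, adjusted p = 0.00422). It was the next largest fall after Saa3. The call held in each of 8 omissions of 1 array (adjusted p = 0.00217 to 0.03) and ended without variance moderation (adjusted p = 0.0551).

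Hemopexin, the plasma carrier of free heme, did not pass the test. Hpx had 9.39, 9.33, 9.37 and 9.77 in Zfp125 cells, against 9.88, 9.82, 10.05 and 10.15 in EV cells. The groups did not overlap, but the highest Zfp125 array came within 0.046 of the lowest EV array. The change was -0.51 ± 0.12 (95% confidence interval -0.79 to -0.23, limma, adjusted p = 0.201).

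The changes of Hp and Hpx differed in size. The Hp minus Hpx difference was -0.49, -0.52, -0.38 and -0.37 in Zfp125 cells, against 0.66, 0.80, 0.65 and 0.72 in EV cells. Within each group the difference varied less than either gene, with an SD of 0.076 in Zfp125 cells and 0.068 in EV cells. The shift was -1.15 ± 0.05 (exact two-sided permutation test, p = 0.0286, adjusted p = 0.0357 over 5 pairs).

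Orosomucoids, the alpha-1-acid glycoproteins, bind drugs and steroids in plasma and are close paralogs. Orm1 had 5.31, 5.02, 5.53 and 6.13 in Zfp125 cells, against 6.08, 5.42, 5.95 and 6.51 in EV cells. The arrays spread over more than 1 log2 unit in each group and the groups overlapped, with a change of -0.49 ± 0.27 (95% confidence interval -1.10 to 0.12, limma, adjusted p = 0.631). Orm2 had 4.14, 3.97, 3.83 and 4.00 in Zfp125 cells, against 4.11, 3.52, 4.15 and 3.79 in EV cells. Its change was 0.10 ± 0.15 (95% confidence interval -0.24 to 0.43, limma, adjusted p = 0.899). The Orm1 minus Orm2 shift of -0.58 ± 0.33 did not pass (exact two-sided permutation test, p = 0.171, adjusted p = 0.171 over 5 pairs). The third paralog, Orm3, which lies between them on chromosome 4, had a change of 0.37 ± 0.12 (limma, adjusted p = 0.363). It was dim, at 3.14 ± 0.19 in Zfp125 cells and 2.77 ± 0.16 in EV cells. Orm2 and Orm3 both lay below the median of the cluster means, 4.34, so a change near background cannot be told apart from none. Paralogs of this similarity may share probe signal.

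Lrg1, a leucine-rich secreted glycoprotein that modulates TGF-beta signalling in blood vessels, was lower in Zfp125 cells. It had 5.30, 5.30, 5.63 and 5.91 in Zfp125 cells, against 6.90, 7.10, 6.67 and 7.41 in EV cells. The groups were 0.76 apart at their nearest. The change was -1.49 ± 0.19 (95% confidence interval -1.91 to -1.07), a 2.80-fold lower level (limma, adjusted p = 0.0222). The call held in 2 of the 8 omissions of 1 array, those of replicate 4 of the Zfp125 cells and replicate 3 of the EV cells, with adjusted p-values of 0.0245 to 0.0921 over all 8. Without variance moderation it ended (adjusted p = 0.139). It held when the test was run on 22180 genes, each by its brightest single-symbol cluster, which is called 1 cluster per gene hereafter (limma, adjusted p = 5.76e-04).

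Lipocalin 2, encoded by Lcn2, is an abundant neutrophil granule protein that hepatocytes also release in inflammation. Lcn2 had 10.51, 10.52, 10.62 and 11.07 in Zfp125 cells, against 11.26, 11.01, 11.27 and 11.40 in EV cells. Replicate 4 of the Zfp125 cells lay just above the lowest EV array, so the groups overlapped. The change was -0.56 ± 0.14 (95% confidence interval -0.88 to -0.24, limma, adjusted p = 0.227).

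**Figure D3:**
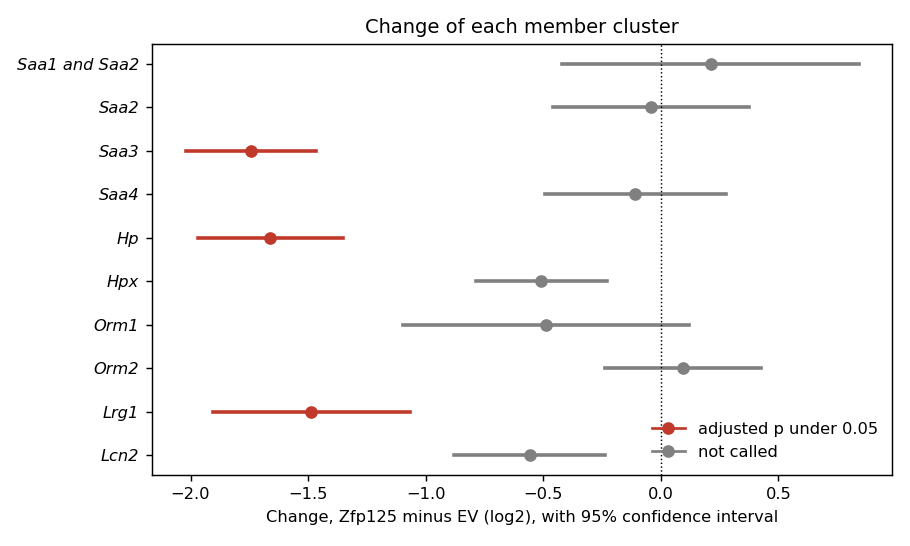
Change of each member cluster, Zfp125 minus EV (x axis, log2), with its 95% confidence interval from limma before adjustment for multiple tests. Red marks the 3 clusters called lower, Saa3, Hp and Lrg1; the intervals of Hpx and Lcn2 also lie below 0, although neither passed after adjustment.

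The members varied together within the Zfp125 group. Replicate 4 was the highest of the 4 Zfp125 arrays for 8 of 10 member clusters, the exceptions being the single Saa2 cluster and Orm2, while it was highest for 23.9% of all clusters. It exceeded the mean of the other 3 arrays by 0.37 for Saa3, 0.50 for Hp, 0.50 for Lrg1, 0.52 for Lcn2 and 0.85 for Orm1. The median excess was 0.50 over the members and -0.0038 over all clusters. The same array was highest for 9 of 11 hepatocyte markers, with a median excess of 0.26, and for 13 of 27 other acute phase genes, with 0.12. In the EV group, replicate 4 was highest for 6 of 10 member clusters and for 24% of all clusters. The part of these array differences in the results was not tested; without replicate 4 of the Zfp125 cells the same 3 members were called.

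Other acute phase proteins were lower in part. Of 27 measured genes of this list, 4 fell and 0 rose, with a median change of -0.31. The share called over the 22180 genes with 1 cluster each was 0.18% lower and 0.0406% higher. The 4 were the 3 chains of fibrinogen, the clot precursor, and Serping1, the C1 inhibitor. Fgg averaged 6.36 ± 0.41 in Zfp125 cells and 7.79 ± 0.22 in EV cells. Fgb averaged 7.90 ± 0.32 in Zfp125 cells and 9.11 ± 0.20 in EV cells, and Fga 7.29 ± 0.25 in Zfp125 cells and 8.40 ± 0.16 in EV cells. Serping1 averaged 5.38 ± 0.21 in Zfp125 cells and 6.24 ± 0.15 in EV cells. By limma, these 4 had adjusted p-values of 0.0208 to 0.0456. C-reactive protein, Crp, which is a minor acute phase protein in mice, had a change of 0.31 ± 0.13 (limma, adjusted p = 0.514). Lbp, also of this list, averaged 10.61 ± 0.10 in Zfp125 cells and 10.30 ± 0.15 in EV cells. Its change was 0.31 ± 0.10 (limma, adjusted p = 0.351). Of the 27 genes, 23 had a change below 0. When the test was run on 1 cluster per gene, 8 of the 27 fell and 0 rose, with Hamp, Serpina1c, Mt2 and Il1rn as the additional genes. That test called 0.636% of its 22180 genes lower and 0.446% higher.

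Plasma proteins that fall in the acute phase response were also lower in part. The median change of 9 measured genes was -0.49. Of these, 1 fell and 0 rose, against 0.18% and 0.0406% of the 22180 genes in the test over all clusters. The gene was Fetub, which encodes fetuin B and averaged 5.40 ± 0.26 in Zfp125 cells and 6.63 ± 0.29 in EV cells (limma, adjusted p = 0.0384). Ahsg, which encodes fetuin A, had a change of -1.33 ± 0.23 (limma, adjusted p = 0.0772), and albumin, Alb, one of -0.48 ± 0.08 (limma, adjusted p = 0.0794). With 1 cluster per gene, 5 of the 9 fell and 0 rose, against 0.636% and 0.446% of all genes in that test. Both acute phase lists, those named for rising and for falling in inflammation, thus had medians below 0.

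Regulators of acute phase transcription showed 0 calls among 27 measured genes, with a median change of -0.055. Il1r1, the interleukin-1 receptor, averaged 6.12 ± 0.21 in Zfp125 cells and 5.48 ± 0.15 in EV cells, a change of 0.63 ± 0.12 (limma, adjusted p = 0.112). With 1 cluster per gene, Il1r1 rose and was the 1 call of this list. That test called 0.636% of all genes lower and 0.446% higher. Hnf4a, a hepatocyte transcription factor, had a change of -0.38 ± 0.08 (limma, adjusted p = 0.14). Il6ra, the receptor of interleukin-6, had a change of -0.35 ± 0.09 (limma, adjusted p = 0.215). The C/EBP family genes Cebpa and Cebpb had changes of -0.39 ± 0.12 and -0.20 ± 0.08 (limma, adjusted p = 0.345 and 0.46). In these 3 genes, and in Hnf4a and Nfkb2, the groups did not overlap, with Zfp125 cells lower. In Il1r1 and Onecut1 they did not overlap either, with Zfp125 cells higher. Over all clusters, 3.03% did not overlap with Zfp125 cells lower and 3.2% with Zfp125 cells higher. The mRNA of Stat3 had a change of 0.0051 ± 0.088, of Il6st, the shared receptor chain of the interleukin-6 family, 0.062 ± 0.102, of Cebpd -0.15 ± 0.11 and of Socs3, a STAT3-induced inhibitor, -0.087 ± 0.101. Il6ra, Cebpa, Cebpb, Nfkb2, Onecut1, Stat3, Il6st, Cebpd and Socs3 were chosen after their values were seen. Their mRNA levels do not measure factor activity.

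Receptors and enzymes that handle the proteins and their ligands also had 0 calls among 18 measured genes, both over all clusters and with 1 cluster per gene, and a median of -0.046. Smallest in p were Cd36, a scavenger receptor reported to bind serum amyloid A, with -0.60 ± 0.17 (limma, adjusted p = 0.26), and the ferritin heavy chain Fth1 with -0.15 ± 0.08 (limma, adjusted p = 0.6). Hmox1, which degrades heme, had a change of -0.11 ± 0.10. Lrp1, the receptor of heme-loaded hemopexin, had one of -0.035 ± 0.093. Both were named after their values were seen.

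**Figure D4:**
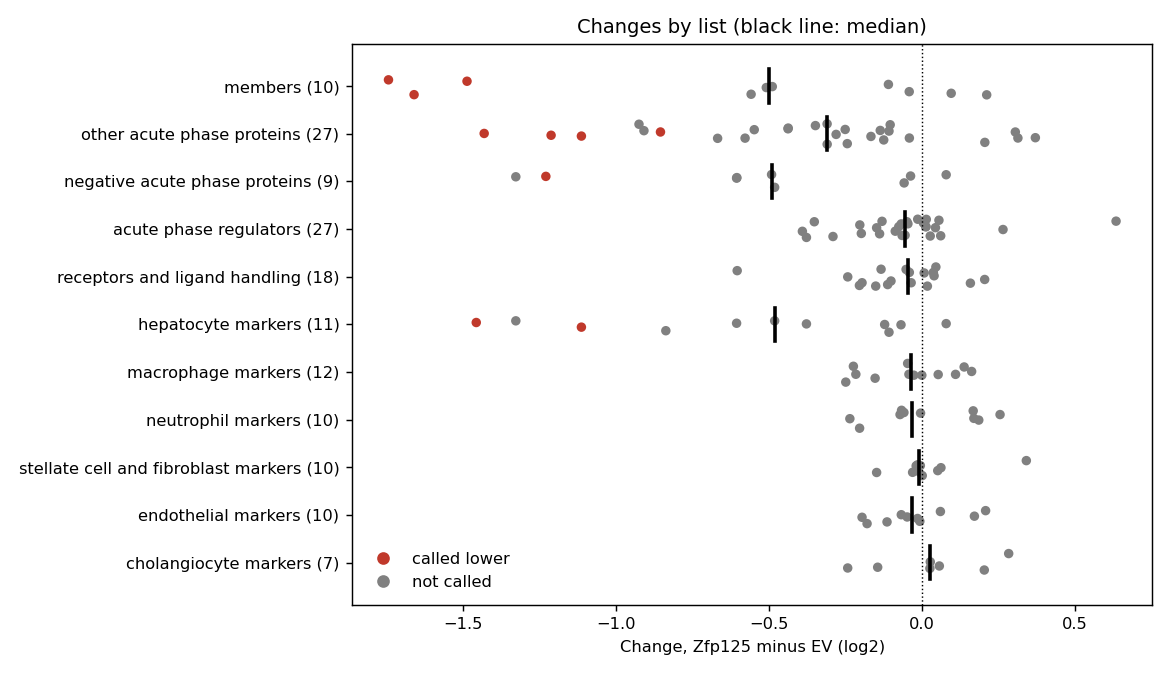
Change of each measured gene, Zfp125 minus EV (x axis, log2), for the members and the gene lists, with black lines at the medians and the number measured in brackets. Red points are genes called lower, which occur among the members, both acute phase lists and the hepatocyte markers, and no gene of these lists was called higher.

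Genes next to the members on the chromosome were not called in the test over all clusters. The test with 1 cluster per gene, which called more genes, was not read for them. The 5 nearest protein-coding genes on each side of every member locus gave 58 measured neighbours by the RefSeq gene order of GRCm38.p6. Of these, 0 were called lower and 0 higher, and their median change was -0.041. Their changes lay between -0.51 and 0.46. Around the serum amyloid genes, 10 neighbours had a median change of -0.11, and the smallest adjusted p was that of Ldha, a lactate dehydrogenase subunit, with -0.51 ± 0.09 (limma, adjusted p = 0.0747). Next to Lrg1, Sema6b had a change of -0.51 ± 0.13 (limma, adjusted p = 0.203), and the 10 neighbours of Hp had a median of -0.012. Col27a1, next to the Orm genes, went the other way, with a change of 0.46 ± 0.11 (limma, adjusted p = 0.1885).

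Some genes other than the members followed Saa3 and Hp closely over the 8 arrays. Emp3 (Pearson r = 0.992), Kcnma1 (0.991) and Kng2 (0.988) were most like Saa3, and Hsd17b13 (0.991), Cybb (0.989) and Fga (0.988) were most like Hp. These values describe 8 arrays in 2 groups, so the step between the groups sets most of each correlation. Hsd17b13, a liver lipid droplet protein, had a change of -0.89 ± 0.10 (limma, adjusted p = 0.0133), and Emp3, an epithelial membrane protein, one of -0.83 ± 0.10 (limma, adjusted p = 0.0157). Kcnma1, a potassium channel, had a change of -0.43 ± 0.08 that did not pass (limma, adjusted p = 0.0835).

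The labelled cell type was checked with marker lists. Of 11 measured hepatocyte markers all lay above the median of the cluster means, and their median change was -0.48. In Zfp125 cells 2 fell, Fga and Tat, and 0 rose. The shares of the 22180 genes in the test over all clusters were 0.18% lower and 0.0406% higher. With 1 cluster per gene, 5 of the 11 fell and 0 rose, against 0.636% and 0.446% of all genes in that test. Of them, Alb, Ttr, Apoa1, Ahsg, Fga and Serpina1a also stand in the acute phase lists. The summed linear level of these markers was 14887 to 15372 in Zfp125 cells and 17884 to 20145 in EV cells. Brightest were Alb (12.48 in Zfp125 and 12.96 in EV cells) and Ttr (12.66 and 12.58), which weigh most in this sum. Ttr, the plasma carrier transthyretin, had a change of 0.079 ± 0.096 (limma, adjusted p = 0.863) and Apob one of -0.068 ± 0.082 (limma, adjusted p = 0.862). The part of the lower hepatocyte markers in the members' falls was not tested.

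Markers of other cells that make these proteins showed 0 calls over all clusters and with 1 cluster per gene. The 12 macrophage markers summed to 250 to 268 in Zfp125 cells and 240 to 280 in EV cells, with a median change of -0.034. The 10 neutrophil markers summed to 131 to 146 in Zfp125 cells and 135 to 143 in EV cells, with a median of -0.032, and only 1 of them lay above the median of the cluster means. The 10 stellate cell and fibroblast markers summed to 222 to 243 in Zfp125 cells and 228 to 237 in EV cells, with a median of -0.0086. The 10 endothelial markers summed to 171 to 187 in Zfp125 cells and 184 to 192 in EV cells, with a median of -0.031. The 7 measured cholangiocyte markers summed to 1368 to 1594 in Zfp125 cells and 1230 to 1367 in EV cells, with a median of 0.027. Without Sox9 the other 6 summed to 371 to 445 in Zfp125 cells and 394 to 475 in EV cells, so the separate ranges rested on that gene. Sox9, a biliary and progenitor factor, had the smallest p of these, with a change of 0.28 ± 0.09 (limma, adjusted p = 0.315). It was bright, at 10.04 ± 0.10 in Zfp125 cells and 9.75 ± 0.06 in EV cells. Of the 7 cholangiocyte markers, 4 lay above the median of the cluster means, so lying above it does not by itself tell hepatocytes from biliary cells.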

How the data were processed

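RNA from 8 samples of AML12 cells was measured on MoGene 2.0 ST arrays. The deposited values are log2 expression values, 1 per transcript cluster and array; that they are log2 was read from the values, with array medians of 4.32 to 4.37. Per the submitters' processing notes, the tools were Affymetrix Expression Console and Transcriptome Analysis Console. For versions, background correction and normalization, nothing was given in the sources used here; no detection call was used. Correlations between any 2 arrays were 0.977 to 0.984, and 0 arrays were identical. The number of arrays limits the precision, with a median SD within a group of 0.154 in Zfp125 and 0.172 in EV cells.

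Of 41345 clusters, 23521 carried 1 symbol, 1814 several and 16010 none. Symbols were updated by Entrez identifier (23328 found) to the RefSeq table of GRCm38.p6. Listed genes and neighbours used the brightest of their 1-symbol clusters, which gave 22180 genes.

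All clusters entered one fit with lmFit and eBayes (limma 3.58.1, R 4.3.3), two-sided, and called at an adjusted p under 0.05. On simulated data with this comparison and 41345 clusters, 14%, 74%, 92% and 92% of clusters changed by 0.5, 1, 1.5 and 2 were recovered, with 11 false among 147 calls. The simulated noise was normal and independent between clusters. It held no shared array differences like those of replicate 4, so these rates may not hold for the real arrays. Sequences were searched with Python 3.11.15 (the letters for NF-kB and HNF1 were shortened after a first search with longer forms, which also matched no member window) and plots drawn with matplotlib 3.10.9. Members and lists were chosen with earlier results of these data known. The text names all members, up to 6 called genes of each list by smallest p or otherwise the 2 smallest, and called neighbours. For 2 members it also names the 3 genes most like them. Crp, Ahsg, Alb, Orm3, Ttr, Apob, Ldha, Sema6b, Sox9, Stat3, Il6st, Cebpd, Socs3, Il6ra, Cebpa, Cebpb, Nfkb2, Onecut1, Hmox1 and Lrp1 were added after their values were seen. Col27a1 and Lbp were also added after their values were seen. Alternatives covered normalization, dim clusters, variance moderation, array weights, 1 cluster per gene, the replicate block and leaving out each array. Of the listed genes, those without a 1-symbol cluster are not analysed here.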

Additional observations from a re-analysis of the deposited data

Results flagged for a closer look

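Hemopexin in replicate 4 of the Zfp125 cells had a value of 9.77, and the other 3 Zfp125 arrays lay between 9.33 and 9.39. The gap to the nearest of them was 0.858 of the group's whole range, above Dixon's 95% critical value for 4 samples. With 20 groups examined, about 1 in 20 is flagged by chance. The same array was the highest Zfp125 array for 8 of the 10 member clusters.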

How the results depend on the processing

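The calls of Saa3, Hp and Lrg1 as lower held with quantile normalization again, median centring, clusters above the median level, a trended and robust prior, array weights and 1 cluster per gene, and no member was called higher in any setting run. Without variance moderation 0 members and 4 clusters were called in all. The replicate block also gave 0 members and 0 clusters, with adjusted p-values of 0.0543 for Saa3, 0.053 for Hp and 0.0655 for Lrg1. Over all clusters same-numbered samples did not deviate together (correlations of -0.041, -0.023, 0.030 and -0.012), so the numbers are not taken as pairs. Over the 10 member clusters, however, replicate 4 was highest in both groups for 6 and replicate 2 lowest in both for 3. The block lowered the SE of most member clusters, most for Orm1, to 0.11, against 0.27 without it (limma, adjusted p = 0.313 with the block). It raised the SE only for Saa3, to 0.13 against 0.12, and for the cluster shared by Saa1 and Saa2, to 0.30 against 0.28. With 4 samples in each group the block cannot alter a change. Leaving out 1 array gave 2 to 3 members called lower and 0 called higher. Of all clusters, 61 were called in the test as reported, against 232 among clusters above the median level, 196 with the trended and robust prior, 240 with 1 cluster per gene, and 16 to 61 on leaving out 1 array, lowest without replicate 1 of the Zfp125 cells. Lower calls were 83.6% of all calls, 92.3% with median centring, 62.9% above the median level, 64.3% with the trended and robust prior and 58.8% with 1 cluster per gene, which tests fewer clusters. Changes that turned sign were those of Saa2 without replicate 1 of the Zfp125 cells (0.059) or replicate 3 of the EV cells (0.077), of the cluster shared by Saa1 and Saa2 without replicate 4 of the Zfp125 cells (-0.095), and of Orm2 without replicate 2 of the EV cells (-0.028); none of these was called, and the cause was not tested. Over the 8 omissions these changes ranged from -0.217 to 0.077, from -0.095 to 0.39 and from -0.028 to 0.182, in the same order. The 5 differences between related members kept their direction in the settings run, and with 1 array left out they have no test. Dim clusters limit Saa1, Saa2, Orm2 and Orm3, for which a change near background could not be measured.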
